A study of Mus musculus with 96 samples.

Results

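Macrophage and Kupffer cell markers were followed through gonadal fat and liver of 48 intercross mice. The members were 10 genes picked by name: Gpnmb, Cd9, Mrc1, Cd68, Lgals3, Ctsk, Clec4f, Cd14, Lyz2 and Cd163, out of 17658 genes named on the array. Every probe of them was taken, which gave 14 probes for 9 of the 10 genes, since no probe carried the name Cd68. The mice, all 15 weeks old, were the F2 generation of the cross M16i x MB2, in which M16i comes from mice selected for rapid growth. Fat came from the gonadal depot, and each mouse gave 1 fat and 1 liver array. The labels put the mice in 4 haplotype classes, 12 in each class with 6 of each sex, without saying which parental segments a class carries, and they record no treatment. Gonadal fat lies beside the epididymis in males and the ovary and uterus in females, so that sex and depot cannot be told apart in fat.

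Macrophages of fat tissue take up and digest lipid from dying adipocytes. Cells engaged in this carry a lysosomal and lipid-handling set of transcripts to which Gpnmb, Cd9, Lgals3 and Ctsk belong, together with Trem2, whereas tissue-resident macrophages are known for the endocytic receptors Mrc1 and Cd163. Kupffer cells are the macrophages of the liver sinusoids, and Clec4f marks them in mice. Lyz2 (lysozyme) and Cd68 are general macrophage markers, and Cd14 binds bacterial lipopolysaccharide for Toll-like receptor 4. Several of these genes are not confined to macrophages: Cd9 and Lgals3 are made by many cell types and Ctsk is best known from osteoclasts.

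The proximal promoters of Gpnmb, Ctsk, Lgals3, Lyz2 and Cd9 are printed because these genes formed the strongest positive pairs in fat, described further on. Each runs 5′ to 3′ on the strand of the gene, from 250 bases before its start to 30 after it, as given by RefSeq on GRCm38.p6, and capitals mark the motif found.
Gpnmb (chr6:49036268-49036547, plus strand): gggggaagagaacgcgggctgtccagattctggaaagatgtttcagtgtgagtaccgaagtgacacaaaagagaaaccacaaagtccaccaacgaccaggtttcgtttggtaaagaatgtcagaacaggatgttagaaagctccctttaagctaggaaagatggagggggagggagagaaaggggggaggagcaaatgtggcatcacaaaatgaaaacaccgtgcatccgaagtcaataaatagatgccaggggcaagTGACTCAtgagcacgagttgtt
Ctsk (chr3:95498960-95499239, plus strand): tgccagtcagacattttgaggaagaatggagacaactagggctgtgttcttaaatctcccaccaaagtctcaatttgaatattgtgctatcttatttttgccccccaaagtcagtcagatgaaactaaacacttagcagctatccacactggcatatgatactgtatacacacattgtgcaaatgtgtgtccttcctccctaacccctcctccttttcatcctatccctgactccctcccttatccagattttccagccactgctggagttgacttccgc
Lgals3 (chr14:47373610-47373889, plus strand): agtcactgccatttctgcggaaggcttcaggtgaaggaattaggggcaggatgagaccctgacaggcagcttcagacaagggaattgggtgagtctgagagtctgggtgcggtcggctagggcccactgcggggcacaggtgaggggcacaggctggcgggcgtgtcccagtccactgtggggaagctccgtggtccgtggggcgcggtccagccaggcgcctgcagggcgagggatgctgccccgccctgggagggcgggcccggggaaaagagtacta
Lyz2 (chr10:117282243-117282522, minus strand): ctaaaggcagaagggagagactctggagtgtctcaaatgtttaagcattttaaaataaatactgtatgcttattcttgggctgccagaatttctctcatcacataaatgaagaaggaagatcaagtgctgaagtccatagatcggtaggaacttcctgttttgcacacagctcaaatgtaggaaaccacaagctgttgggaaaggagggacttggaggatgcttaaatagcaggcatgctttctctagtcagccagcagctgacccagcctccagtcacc
Cd9 (chr6:125494731-125495010, minus strand): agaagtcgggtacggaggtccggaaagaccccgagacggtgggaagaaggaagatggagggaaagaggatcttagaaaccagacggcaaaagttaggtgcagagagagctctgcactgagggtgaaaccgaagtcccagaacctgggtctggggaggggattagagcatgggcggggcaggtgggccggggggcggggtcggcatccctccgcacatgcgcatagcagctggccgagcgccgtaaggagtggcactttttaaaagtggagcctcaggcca
Windows of 300 bases, from 250 before the start to 50 after it, were searched on both strands for the M-box forms TCATGTG and TCACGTG, the PU.1 core GAGGAAGT and the AP-1 site TGANTCA. Among 32851 promoter windows of that length, 3.77% held the first M-box form, 3.77% the second, 3.2% the PU.1 core and 7.81% the AP-1 site. Of the 5 printed promoters, that of Gpnmb held 1 AP-1 site, TGACTCA, whose first base is base 9 after the start, and the other 4 held none of these letters. GC content was 47.7% for Gpnmb, 43.7% for Ctsk, 44.3% for Lyz2, 67.0% for Lgals3 and 61.3% for Cd9, against a median of 52.7% over all promoters. The 9 members with an entry in the table include all but Cd14.

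Signals are given on a log2 scale after background correction and normalization, and a probe counts as detected on an array where its detection p was under 0.01. Between 6582 and 10002 probes were detected per fat array and between 5519 and 9060 per liver array. The sexes had similar numbers in fat (means of 8863 in females and 8934 in males) and different numbers in liver (7837 in females and 7073 in males). Xist signals of the 24 females and the 24 males did not overlap in either tissue, in accord with the sex labels. Adiponectin (Adipoq) was detected on 48 fat arrays and 1 liver array, and the apolipoprotein gene Apoa1 on 3 fat arrays and 48 liver arrays, while the 1 albumin probe was detected on 18 livers and no fat sample. Of 20 further general macrophage genes, such as Adgre1 (detected on 48 fat and 45 liver arrays), 14 passed the minimum for testing, detection on 12 or more arrays of the tissue, in fat and 12 in liver. In fat 3 arrays, all from males (2 of class 2 and 1 of class 1), correlated least with the others, at a median r of 0.926 to 0.929 against 0.943 for the next. In liver 1 array, from a class 2 female scanned on day 2, had the highest summed signal of the general macrophage genes, 12.47 against 11.79 for the next on the log2 scale. That array also had the highest Lgals3, Clec4f, Cd14 and Lyz2 signals of all 48 livers, and results that rest on it are given with and without it. The highest liver sum of neutrophil genes (14.34, female median 9.82) was also that of a class 2 female. So was the highest of dendritic cell and MHC class II genes (12.31, female median 9.50). Whether these came from the same array was not checked.

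Gpnmb and Ctsk were detected in fat alone and Clec4f in liver alone, while Cd9, Mrc1, Lgals3 and Lyz2 were detected in both tissues. In fat 8 probes of 7 genes passed the detection minimum (2 of Gpnmb and 1 each of Cd9, Mrc1, Lgals3, Ctsk, Cd14 and Lyz2), and in liver 5 probes of 5 genes (Cd9, Mrc1, Lgals3, Clec4f and Lyz2). Gpnmb, a transmembrane glycoprotein of lysosomes, was detected on 48 fat and 0 liver arrays by its brightest probe, on 27 and 0 by the second and on 7 and 0 by the third. The remaining Gpnmb probe was detected on 0 arrays. Ctsk, which encodes the collagen-cleaving protease cathepsin K, was detected on 48 fat and 0 liver arrays. Clec4f was the mirror image, with 0 fat and 48 liver arrays. Cd163, the scavenger receptor for haemoglobin bound to haptoglobin, has 1 probe, and it was detected on 0 arrays of either tissue, as were 2 of the 3 Lyz2 probes. The Lyz2 probe that was detected may also bind transcripts of the close paralog Lyz1, a probe of which was detected on 47 fat and 0 liver arrays.

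**Figure D1:**
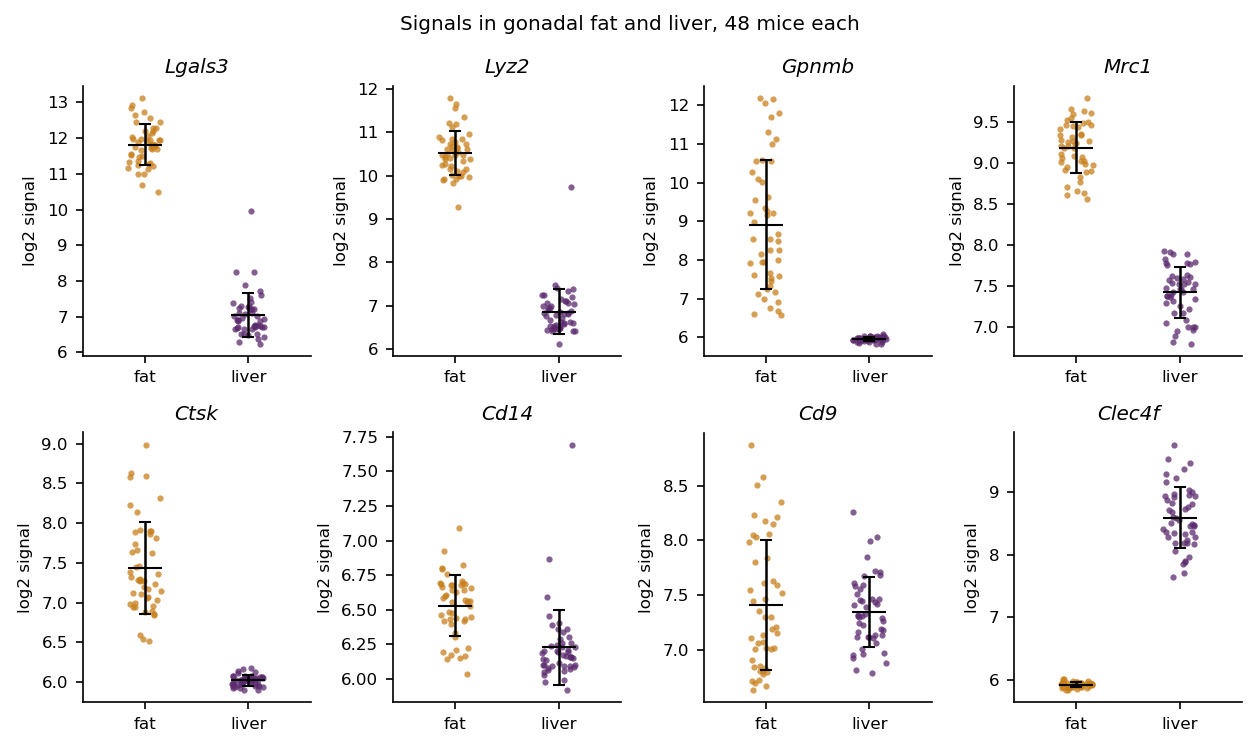
Log2 signal of the 8 detected members (brightest probe each) in gonadal fat and liver, normalized over all 96 arrays. Points are single mice, bars the mean and SD of 48 arrays. Lgals3, Lyz2, Gpnmb, Mrc1 and Ctsk lie higher in fat, Clec4f in liver, while Cd14 is slightly higher in fat and Cd9 overlaps throughout.

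Set against each other in the same normalization, fat had far more Lgals3 than liver. In bulk tissue, fewer macrophages, less RNA per macrophage and a different amount from other cell types cannot be told apart. Lgals3, the gene of galectin-3, ranged from 10.49 to 13.11 (median 11.81) in fat and from 6.25 to 9.95 (median 6.92) in liver, with no overlap and a difference of 4.77 (SE 0.12, limma adjusted p = 8.08e-59). Lyz2 ranged from 9.27 to 11.78 (median 10.49) in fat and from 6.13 to 9.73 (median 6.81) in liver, a difference of 3.66 (SE 0.11). The highest liver value of both genes was that of the class 2 female named above, and without it the differences were 4.84 and 3.72. Only for Lyz2 did that value reach into the range of the fat samples. Mrc1, the macrophage mannose receptor, had 8.56 to 9.79 (median 9.22) in fat and 6.80 to 7.93 (median 7.46) in liver, a 3.41-fold difference (1.77, SE 0.05), and was higher in fat in 48 of 48 mice.

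Gpnmb varied more between fat samples than any other member, from 6.56 to 12.18 (median 8.54), while liver lay at background between 5.84 and 6.07. The mean signal in fat was at least 6.04-fold above the lowest detectable signal in liver (fitted difference 2.95, SE 0.22), and at least 1.29-fold for the second probe. Such bounds set the mean of the detected tissue against the lowest signal of a detected probe on each array of the other. For Ctsk, with 6.52 to 8.99 (median 7.29) in fat, the bound was at least 2.17-fold higher in fat. For Clec4f, a C-type lectin, it was at least 5.18-fold higher in liver, where the signal ran from 7.65 to 9.75 (median 8.53). Cd14 was detected on 40 of 48 fat arrays and on 11 of 48 liver arrays. Its fitted difference was 0.30 (SE 0.05), a value that rests largely on liver signals not above background, so no fold is given.

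The exception was Cd9, a tetraspanin of the cell surface. Its signal was 6.63 to 8.87 (median 7.25) in fat and 6.79 to 8.26 (median 7.31) in liver, and 24 of 48 mice had more in fat (difference 0.07, SE 0.10, adjusted p = 0.513). In all, 8 of the 9 member probes tested over both tissues passed, 7 higher in fat (Cd14 with the limit just given) and 1 in liver. That is set against 86.7% of all 11718 probes tested, 47.9% higher in fat and 38.8% higher in liver, so that a call by itself is close to the background. The median absolute difference over all probes was 0.30. Of the general macrophage list, 13 of 14 tested genes were higher in fat and 0 in liver (median 0.80). The Kupffer cell list had 6 of 10 genes higher in liver, among them Vsig4 (-2.00), a complement receptor of these cells, and 3 higher in fat.

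Across the haplotype classes no fat member reached a call, and class 2 had the lowest mean for every fat gene but Cd9. Gpnmb ran from 6.66 to 11.85 (median 8.97) in class 1, 6.89 to 10.48 (median 7.95) in class 2, 6.70 to 11.96 (median 8.99) in class 3 and 7.32 to 10.45 (median 9.35) in class 4. All 4 classes overlapped. The adjusted class means were 9.17, 8.13, 9.44 and 9.17 in classes 1 to 4, a 2.48-fold spread that 5 of 10217 probes exceeded, yet with a limma adjusted p of 0.383 (unadjusted 0.0492). The second Gpnmb probe had the same lowest and highest class, with 6.26 in class 2 and 7.24 in class 3 (adjusted p = 0.291).

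Lgals3 in fat had 11.66, 11.29, 11.90 and 11.61 in classes 1 to 4, with single samples from 10.96 to 11.98 in class 2 and from 11.16 to 12.86 in class 3. Its unadjusted p of 0.00699 was the smallest of the members, and the adjusted p was 0.214. Every class was represented by 1 sex on each day of scanning, so a comparison of classes within a day can hold a difference between the sexes too. Classes 2 and 3 were of the same sex on days 4 and 7, when the mean of Lgals3 was 11.08 and 11.27 in class 2 and 11.82 and 11.58 in class 3, and of opposite sex on days 3 and 8. Ctsk had 7.80, 7.31, 7.86 and 7.55 in classes 1 to 4 (adjusted p = 0.405). Mrc1, the 1 member on chromosome 2, which the study's title names, had 9.28, 9.15, 9.26 and 9.32 (adjusted p = 0.688).

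By limma's F-test 0 of the 8 fat probes differed between the classes, against 0.401% of all probes. At an unadjusted p under 0.05 there were 3 (both Gpnmb probes and Lgals3), against 12.9% of all probes. Class 2 had the lowest mean for 7 of the 8 member probes and for 36.9% of all fat probes, the exception being Cd9, which was lowest in class 4. Class 4 was highest for 2 (Mrc1 and Cd14), against 29.0% of all fat probes. Of the further lists, 13 of 14 general macrophage genes and 10 of 11 genes of lipid-associated macrophages were lowest in class 2, with 0 of either list past the threshold. These genes were measured on the same arrays and vary together, so the counts are not independent of one another. The fat array counts of detected probes averaged 8938.5, 8805.5, 8720 and 9129 in classes 1 to 4. Between pairs of classes, 0 of 48 combinations of probe and pair passed. Calls over all probes came to 0.0685% for class 1 minus class 2, 0.0294% for 1 minus 3 and 0.176% for 1 minus 4. They came to 0.421% for 2 minus 3, 1.39% for 2 minus 4 and 0.0685% for 3 minus 4. The member combination closest to a call was Lgals3 between classes 2 and 3, with -0.62 (SE 0.17, limma adjusted p = 0.0822).

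**Figure D2:**
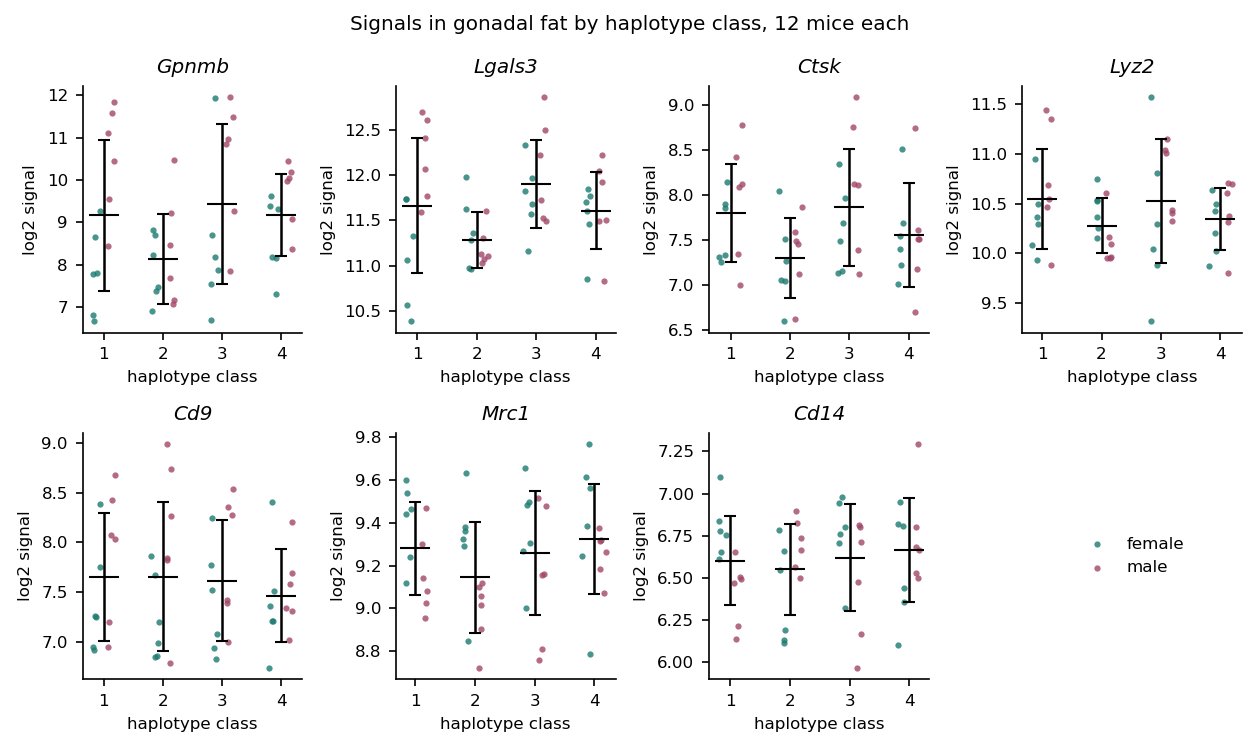
Log2 signal in gonadal fat by haplotype class for the 7 members detected there. Points are single mice coloured by sex, bars the mean and SD of 12 arrays. Class 2 has the lowest mean for all but Cd9, and the classes overlap for every gene.

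In liver the class test called no member either. Clec4f had adjusted means of 8.39, 8.39, 8.29 and 8.61 in classes 1 to 4, and Mrc1 7.11, 7.13, 7.11 and 7.30. None of the 5 probes differed by class in limma's F-test (0.317% of all liver probes did), 0 had an unadjusted p under 0.05 (5.35% of all did), and the adjusted p-values were 0.998 or more. Of the 5 probes 0 were lowest in class 2, against 28.2% of all liver probes, and 2 (Mrc1 and Clec4f) were highest in class 4, against 23.0%. Between pairs of classes 0 of 30 combinations passed. Over all probes 0.0353% passed for class 1 minus class 2, 0.0118% for 1 minus 3 and 0.317% for 1 minus 4. The shares were 0.047% for 2 minus 3, 0.106% for 2 minus 4 and 0.0941% for 3 minus 4. Lgals3 and Lyz2 were highest in class 2, which holds the array with the highest macrophage signal. Without that array the spread between the highest and lowest class was 0.19 for Lgals3 and 0.08 for Lyz2, against 0.29 and 0.19 with it. For no member did the class effect differ between the tissues by a test of that difference (0 of 9 probes, against 0.179% of all probes); at an unadjusted p under 0.05 there were 3, both Gpnmb probes and Lgals3, against 8.01% of all probes. Nor did it differ between the sexes for any member probe of fat or liver, a test that called 0.0% of all probes in both tissues, with 6.7% of fat and 6.74% of liver probes, and 0 members, at an unadjusted p under 0.05.

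By sex, Gpnmb and Cd9 were higher in male fat and Mrc1 in female fat, and the other 4 fat genes did not pass. Gpnmb was 6.66 to 11.94 (median 8.16) in females and 7.07 to 11.96 (median 10.01) in males. The highest female, of class 3, stood far above the next at 9.62, and the ranges of the sexes overlapped. The adjusted means were 8.21 in females and 9.75 in males, a difference of -1.54 (SE 0.37, limma adjusted p = 0.00184), or 2.91-fold. Of 10217 fat probes, 9 had a larger excess in males. On each of the 4 scanning days males were higher, by 0.61 to 2.48, where a daily difference between the sexes, here and below, also holds differences between the classes. The second probe differed by -0.94 (SE 0.23, adjusted p = 0.0025) and was detected in 9 females and 18 males.

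Cd9 was 6.74 to 8.41 (median 7.23) in females and 6.79 to 8.99 (median 7.84) in males. It differed by -0.48 (SE 0.17, adjusted p = 0.041), and males were higher on 3 of 4 days. Mrc1 went the other way, with 8.79 to 9.77 (median 9.38) in females and 8.72 to 9.52 (median 9.13) in males, a difference of 0.20 (SE 0.07, adjusted p = 0.0431) that had the same direction on 4 of 4 days. The remaining fat members did not pass. Lgals3 differed by -0.30 (95% interval -0.55 to -0.04, adjusted p = 0.0832) and Lyz2 by -0.29 (-0.53 to -0.06, adjusted p = 0.0641). Ctsk differed by -0.21 (-0.55 to 0.12) and Cd14 by -0.01 (-0.11 to 0.10).

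**Figure D3:**
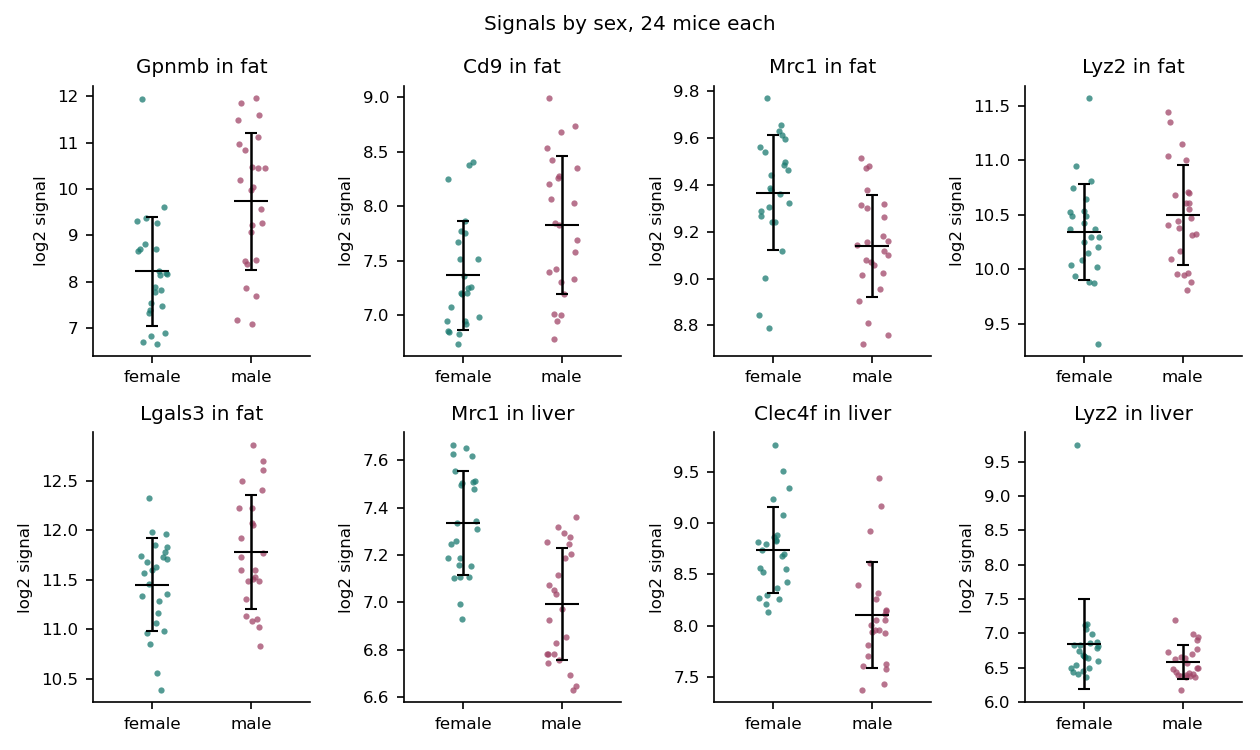
Log2 signal by sex for members in fat and in liver, normalized within each tissue. Points are single mice, bars the mean and SD of 24 arrays. Gpnmb and Cd9 in fat lie higher in males, and Mrc1 in both tissues and Clec4f in liver lie higher in females; 1 female liver stands far above the rest for Lyz2.

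So 4 of 8 member probes differed by sex in fat, 1 higher in females and 3 in males, against 22.6% of all fat probes, 12.1% higher in females and 10.5% in males. These calls were sensitive to the arrays used. Leaving out scanning day 3 gave 0 calls (Gpnmb -1.36, adjusted p = 0.0794; Cd9 -0.07; Mrc1 0.12) and leaving out day 8 also gave 0 (Gpnmb -1.20, adjusted p = 0.0714; Cd9 -0.45; Mrc1 0.25). Without the 3 fat arrays that stood apart, a choice made after seeing the data, both Gpnmb probes passed (-1.41, adjusted p = 0.00504, for the first), while Cd9 and Mrc1 missed the threshold at adjusted p-values of 0.0684 and 0.0695.

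Of 14 general macrophage genes, 0 were higher in females and 1 in males, against 12.1% and 10.5% of all fat probes. The 1 was Ctss (-0.39, adjusted p = 0.0452), the gene of cathepsin S, and Mpeg1, a pore-forming protein of macrophages, had -0.48 (adjusted p = 0.0604). The median difference was -0.03 against 0.01 over all probes. Their summed signal ran from 12.11 to 13.34 in females and from 12.14 to 13.22 in males. With that sum as a further term, the Gpnmb difference was -1.39 (adjusted p = 0.00279). Among 11 genes of lipid-associated macrophages, 1 was higher in females (Lpl, 0.20) and 1 in males (Cd63, -0.16). Mmp12, a macrophage elastase, differed by -0.79 without passing (adjusted p = 0.0502).

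Part of the list of resident and alternatively activated macrophage genes had the direction of Mrc1. Of its 12 tested genes 6 were higher in females and 1, Pltp, was higher in males (-0.29), with a median of 0.23. The females had more Tgm2, a transglutaminase (0.47, adjusted p = 5.81e-08), Mgl2, a C-type lectin (0.68, adjusted p = 5.37e-07), Retnla, a product of alternatively activated macrophages (0.79, adjusted p = 0.00172), and the lectin receptor Cd209f (0.57, adjusted p = 0.00527). Stromal markers moved in the same direction, with 8 of 9 higher in females (median 0.53) and summed levels of 13.14 to 14.05 in females and 12.80 to 13.37 in males. Of endothelial genes 4 of 8 and of dendritic cell genes 3 of 7 were higher in females and 0 in males. Of 4 neutrophil genes 1 was higher in males, with summed levels of 7.60 to 11.64 (median 8.21) in females and 8.05 to 12.32 (median 10.10) in males. The part of these cell types in the result was not tested.

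In liver, the Kupffer cell marker and Mrc1 were higher in females. Clec4f had 8.14 to 9.76 (median 8.72) in females and 7.37 to 9.44 (median 8.03) in males, and differed by 0.64 (SE 0.14, limma adjusted p = 0.00046), or 1.55-fold. Mrc1 had 6.93 to 7.67 (median 7.32) in females and 6.63 to 7.36 (median 7.00) in males, and differed by 0.32 (SE 0.07, adjusted p = 0.000313). The female mean was higher on 4 of 4 scanning days for both, and the ranges of the sexes overlapped. Without the liver array that stood highest, the differences were 0.55 and 0.30 and both still passed.

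The other 3 liver members did not pass. Lyz2 differed by 0.35 (95% interval 0.05 to 0.64, adjusted p = 0.0642), Lgals3 by 0.35 (-0.02 to 0.71, adjusted p = 0.137) and Cd9 by 0.12 (-0.05 to 0.29). The first pair of values rested on 1 female: without her liver array they were 0.13 and 0.10. Leaving out scanning day 5 moved them to 0.63 and 0.75, and both then passed. The count of 2 of 5 probes is set against 34.0% of all liver probes, 16.7% higher in females and 17.4% in males.

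Female livers had more detected probes, as given above, and with that number as a term Clec4f and Mrc1 differed by 0.63 and 0.34 and passed. Of the general macrophage genes 11 of 12 were higher in female livers (median 0.29, against 0.00 over all probes). Examples are Laptm5 (0.60), a lysosomal protein of blood cells, and C1qb (0.32), a complement subunit made by macrophages. Of the 9 Kupffer cell genes 4 were higher in females, among them the iron exporter Slc40a1 (0.47), Timd4 (0.35), a receptor for dying cells, and Vsig4 (0.57). C6 alone was higher in males (-2.74); it is a complement gene expressed by hepatocytes as well. The summed general macrophage signal ran from 10.49 to 12.47 in females and from 10.06 to 11.51 in males, and with it as a term Clec4f differed by 0.24 (adjusted p = 0.0156) and Mrc1 by 0.24 (adjusted p = 0.00934). Markers of sinusoidal endothelium moved too, 6 of 7 higher in females, with summed levels of 10.67 to 11.59 in females and 10.57 to 11.66 in males. Of stellate cell genes 3 of 4 and of general endothelial genes 3 of 6 were higher in females and 0 in males, with summed levels of 10.51 to 11.40 in females and 10.00 to 10.94 in males for stellate cells, and of 8.87 to 9.18 in females and 8.73 to 9.13 in males for endothelium. The part of these cell types in the result was not tested.

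Whether the sex difference itself differed between the tissues was tested as an interaction, which passed for 6 of 9 member probes and for 27.7% of all probes. Female minus male was lower in fat than in liver for all 6. For Lyz2 the gap was -0.71 (SE 0.21, adjusted p = 0.00624) and for Cd9 -0.59 (SE 0.20, adjusted p = 0.0168). Lgals3 had -0.67 (SE 0.23, adjusted p = 0.0231), which no longer passed without the highest liver array (-0.45, adjusted p = 0.0764). The liver part of the Lyz2 gap rested largely on the same array, as given above. Both Gpnmb probes passed (-1.71 and -0.83), as did Clec4f (-0.56), but Gpnmb was at background in liver and Clec4f in fat, so these gaps are the sex differences of 1 tissue. Mrc1, higher in females in both tissues, did not pass (-0.11, adjusted p = 0.482).

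Mice of the same class and sex still differed widely, and the members were compared across the 48 fat samples after class, sex and scanning day had been removed. Among 21 pairs of the 7 fat genes, 6 passed by permutation, all positive. Cd9 and Ctsk formed the closest pair, with a Pearson r of 0.669 (Spearman rho 0.691, both adjusted p = 0.00021, from the smallest p that 100000 permutations can give, 1e-05). Within single scanning days the r was 0.53 to 0.84. This pair includes a widely expressed tetraspanin and a protease, and r was 0.627 without the 2 samples farthest from the median of Cd9.

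Gpnmb varied with Lgals3 (r 0.564, rho 0.543), Lyz2 (r 0.554, rho 0.477) and Ctsk (r 0.543, rho 0.546), each with an adjusted p of 0.000315 for r and of 0.00056, 0.00383 and 0.00056 for rho. Each was positive on 4 of 4 scanning days, with the lowest daily r at 0.37. Without the 2 samples farthest from the median of Gpnmb, r was 0.493, 0.427 and 0.491. The second Gpnmb probe gave 0.58, 0.53 and 0.67. Among females alone the 3 values were 0.44, 0.64 and 0.30, of which the one with Lyz2 passed (adjusted p = 0.168, 0.0106 and 0.449). Among males alone they were 0.71, 0.45 and 0.75, and the one with Lyz2 did not pass (adjusted p = 0.00115, 0.105 and 0.00115). Cd9 with Ctsk had 0.79 in females and 0.59 in males and passed in both. The differences between the sexes were not tested. The remaining pairs that passed were weaker, Cd14 with Lyz2 at 0.398 (rho 0.459, adjusted p = 0.0222 and 0.00525), and Lgals3 with Lyz2 at 0.378 (rho 0.386, adjusted p = 0.0285 and 0.0252). Cd14 with Lyz2 did not pass with the authors' deposited values (0.34, adjusted p = 0.059), and with no terms removed its r was 0.02 (adjusted p = 0.888). Lgals3 with Ctsk missed the threshold (r 0.340, rho 0.329, adjusted p = 0.0542 and 0.068), as did Ctsk with Lyz2 (r 0.301, rho 0.297, adjusted p = 0.0882 and 0.106).

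Mrc1 passed with none of the other 6 genes. Its r with Gpnmb was -0.198 (rho -0.220, adjusted p = 0.281 and 0.252) and negative on 4 of 4 days, and its largest was 0.289 with Cd14 (rho 0.193, adjusted p = 0.0967 and 0.303). An r of 0.5 or more was found for 1.33% of all pairs of tested fat probes, and for 4 of these 21. Taken gene by gene, 0.587% of all fat probes reached that r with Gpnmb, 2.32% with Cd9, 0.215% with Mrc1, 1.42% with Lgals3, 0.675% with Ctsk, 0.245% with Cd14 and 0.646% with Lyz2. Correlation with the number of detected probes was between -0.09 and 0.25 for the members. The residuals keep 40 degrees of freedom for 48 samples, so the permutation p-values are slightly too small.

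**Figure D4:**
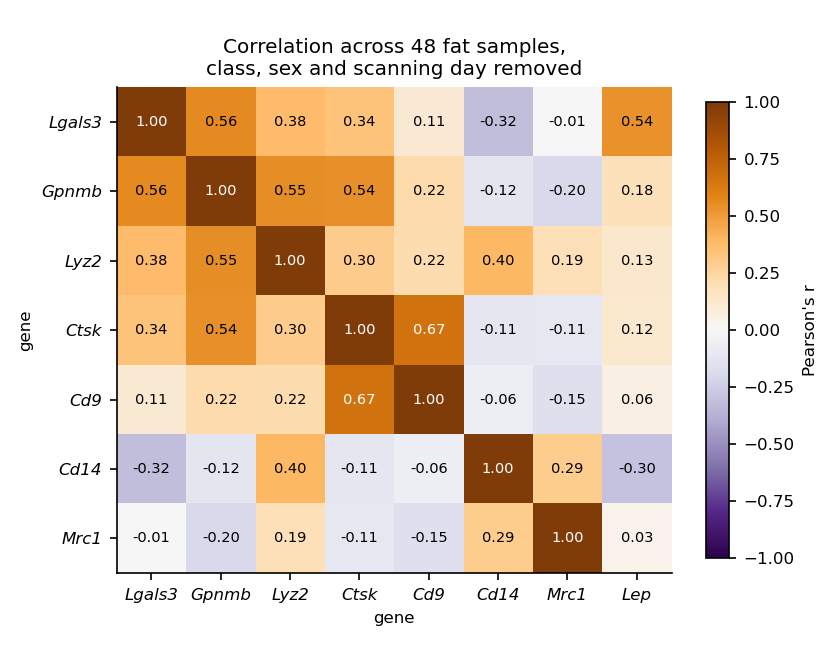
Pearson correlation between members, and with Lep, across 48 fat samples after removal of class, sex and scanning day, from -1 to 1. Gpnmb, Lgals3, Lyz2 and Ctsk have positive values with each other, but Lgals3 with Ctsk (0.340) and Ctsk with Lyz2 (0.301) did not pass. Cd9 has its highest value with Ctsk (0.669), and Mrc1 and Cd14 are below 0 with both Gpnmb and Ctsk.

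The leptin gene Lep, whose signal in fat rises with adipocyte size and fat mass, was compared with the 7 members in the same way. Lgals3 alone passed, with r 0.537 (rho 0.553, adjusted p = 0.00063 and 0.00035), positive on 4 of 4 days between 0.43 and 0.60 and 0.469 without the 2 farthest samples. Over all fat probes 2.22% had an r of 0.5 or more with Lep. Gpnmb had 0.181 (rho 0.195, adjusted p = 0.514 and 0.322), Lyz2 0.128, Ctsk 0.125 and Cd9 0.056, and Cd14 had -0.303 (rho -0.270, adjusted p = 0.124 and 0.223). With Lep removed as a further term the Gpnmb pairs hardly moved, to 0.56 with Lgals3, 0.54 with Lyz2 and 0.53 with Ctsk. Mrc1 had 0.033 over all samples (adjusted permutation p = 0.822) and from -0.31 to 0.40 within days. Its r was 0.39 among 24 females and -0.59 among 24 males, and the difference between the sexes was not tested.

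**Figure D5:**
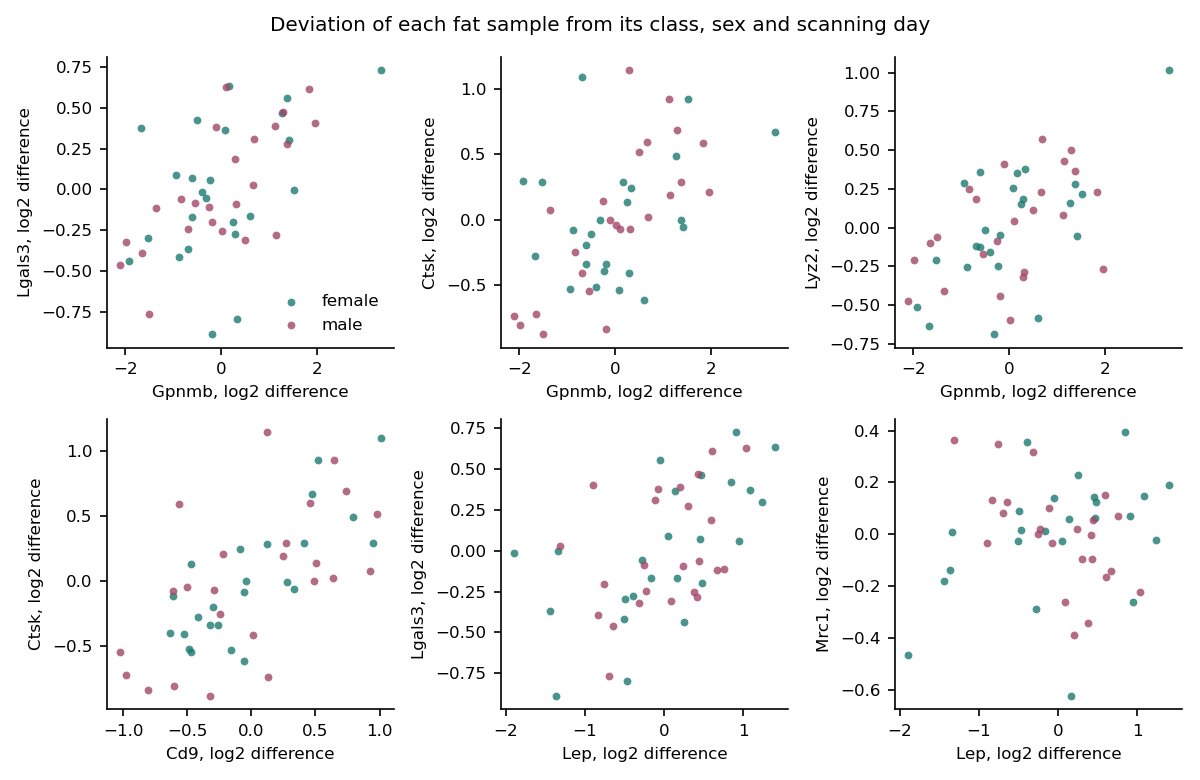
Log2 deviation of each fat sample from its class, sex and scanning day for 6 pairs of genes, with 24 females and 24 males coloured. Gpnmb with Lgals3, Ctsk and Lyz2 has an r of 0.54 to 0.56 over all samples and Cd9 with Ctsk 0.67, and Lgals3 rises with Lep. Mrc1 against Lep has an r of 0.03 over all samples, 0.39 in females and -0.59 in males, a difference not tested.

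The genes most like the members were sought by correlation with the mean of the 7 standardised members over the same 48 fat samples, given as a description. The highest were Cyba (0.757), a subunit of the phagocyte NADPH oxidase, Ms4a7 (0.728), Ctsb (0.721), the gene of cathepsin B, and Trem2 (0.709), the lipid receptor of macrophages. Tlr13 (0.705), an endosomal receptor for bacterial RNA, Apobec1 (0.703), Dpep2 (0.697), Capg (0.696), an actin-capping protein, the Fc receptor gene Fcgr3 (0.691) and the lysosomal Pld3 (0.687) followed. A second Ctsb probe, brighter than the first, reached 0.220 only. The lowest were Pank3 (-0.580), Rhot1 (-0.528), Mogat1 (-0.511), Pus10 (-0.506) and Emc6 (-0.496). An r of 0.5 or more was found for 0.852% of all fat probes, the members included, and for 7 of 14 general macrophage genes (median 0.50).

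The 10 highest genes had an r of 0.469 to 0.776 with Gpnmb and of -0.089 to 0.357 with Mrc1. They were picked by a mean that includes Gpnmb and the members varying with it. These values therefore follow in part from the choice. Trem2 had an r of 0.752 with Gpnmb, 0.614 with Lgals3 and 0.604 with Ctsk, and -0.089 with Mrc1. The elastase Mmp12 had 0.849 with Gpnmb and 0.779 with Lgals3. Mmp12 and Trem2 had the highest r with Gpnmb in the list of lipid-associated macrophage genes. Of its 11 tested genes 5 reached 0.5 with Gpnmb (median 0.33) and 3 with the mean of the members (median 0.39). Others of the list did not follow Gpnmb, such as Plin2 (0.077) and Lpl (-0.145). Of the 12 resident genes 3 reached 0.5 with Mrc1, and 1, Pltp, with Gpnmb (0.555, and 0.153 with Mrc1). The 3 are named after their values were seen: Mgl2 had 0.744 with Mrc1 and -0.316 with Gpnmb, Cd209f 0.672 and -0.279, and Folr2 0.653 and -0.068. Of 14 general macrophage genes 3 reached 0.5 with Mrc1, the complement genes C1qc (0.685), C1qa (0.629) and C1qb (0.565), and 3 with Gpnmb. Of T and NK cell genes 0 of 5, of adipocyte genes 0 of 11 and of stromal genes 0 of 9 reached 0.5 with the mean of the members (medians of -0.04, -0.17 and 0.07). Of the stromal genes 2 reached it with Cd9 and with Ctsk: Lum, a collagen-binding proteoglycan, had 0.674 with Cd9 and 0.578 with Ctsk, and Col1a1, a collagen chain, 0.632 and 0.565. The part of stromal cells in the pair of Cd9 and Ctsk was not tested.

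In liver, 5 of 10 pairs of the 5 detected members passed. Lgals3 with Clec4f had r 0.726 (rho 0.715, adjusted p = 5e-05 and 0.0001), between 0.72 and 0.84 within days and 0.740 without the 2 farthest samples. Lgals3 with Lyz2 had r 0.814 (rho 0.567, adjusted p = 5e-05 and 0.00025), but 0.490 without the 2 samples farthest from the median of Lgals3, 0.599 without the highest array and 0.08 to 0.93 within days, so that its size rests on few samples. Clec4f with Lyz2 had 0.495 (rho 0.415, adjusted p = 0.000667 and 0.00902), Mrc1 with Clec4f 0.448 (rho 0.466, adjusted p = 0.00397 and 0.00317) and Mrc1 with Lyz2 0.322 (rho 0.341, adjusted p = 0.0414 and 0.0376). Without the highest array Mrc1 with Lyz2 did not pass (0.289, adjusted p = 0.0961). Cd9 passed with none. Among all pairs of liver probes 1.74% had an r of 0.5 or more. Of the member pairs, only Lgals3 with Clec4f and Lgals3 with Lyz2 reached that level.

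Fat and liver of the same mouse did not share these levels to a detectable degree. Over 4 genes measured in both tissues r was -0.147 for Cd9, 0.147 for Mrc1, 0.032 for Lgals3 and -0.020 for Lyz2, with rho of -0.129, 0.192, 0.067 and 0.049. The adjusted permutation p-values were 0.642 to 0.895 for r and 0.741 for rho. Without any terms removed Mrc1 alone passed (r 0.41), a value that still holds class, sex and scanning day. The part of each was not tested.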

How the data were processed

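Total RNA of gonadal fat and liver was labelled with biotin and hybridised to Illumina mouse arrays, 1 array per tissue and mouse. The authors deposited raw probe intensities with detection p-values, stored as 1 minus the p per the file headers and values and turned back here. They also deposited log2 values from lumi, per the submitters' processing notes; no background step or genome build is given in the sources used here.

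Intensities were processed with limma 3.58.1 (R 4.3.3) by neqc with an offset of 16, within each tissue, or over all 96 arrays for comparisons between tissues. Probes detected (p under 0.01) on 12 or more arrays were tested: 10217 in fat, 8504 in liver and 11718 over both. Models held class, sex and scanning day; the fat-minus-liver model left out the day, which is nested in tissue. limma's moderated tests were adjusted by Benjamini-Hochberg over all probes at 0.05, and the fit was tested on simulated data. Each tissue was scanned on 4 days, each with 3 arrays of every class, and within a day a class's arrays are of 1 sex. Within a tissue each array is a separate mouse, and the number of arrays limits the precision. Comparisons over both tissues hold 96 arrays of 48 mice, and their main fits did not pair the arrays of a mouse.

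Correlations used residuals of class, sex and scanning day, 1 probe per gene (the brightest), 100000 two-sided permutations (Python 3.11.15, scipy 1.17.1) and Benjamini-Hochberg over 21 pairs in fat, 7 with Lep, 4 across tissues and 10 in liver. In the search for the genes most like the members, a gene with several probes entered by the probe with the largest absolute r. Of 46116 probes, 29534 carry 1 gene symbol, 11 several and 16571 none. All probes of the 10 members were used; Cd68 was not analysed here. From each marker list at most 4 genes were named by test statistic, and 10 highest and 5 lowest genes by correlation. Members and lists were chosen with earlier results of these data known. Alternatives included the deposited values, no background correction, other filters, array weights, days left out and the mouse as a block.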

Additional observations from a re-analysis of the deposited data

Results flagged for a closer look

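For 6 member probes the sex difference was not the same in fat and liver by a test of that difference (limma interaction over all 96 arrays, adjusted p under 0.05). Given as female minus male in fat minus female minus male in liver on the log2 scale, the values were -1.71 and -0.83 for the first and second Gpnmb probes, -0.71 for Lyz2, -0.67 for Lgals3, -0.59 for Cd9 and -0.56 for Clec4f. The same test passed for 27.7% of all probes. Gpnmb was detected on 0 liver arrays and Clec4f on 0 fat arrays. The Lgals3 value was -0.45 and did not pass (adjusted p = 0.0764) without the liver array that had the highest macrophage signal. The sex difference of Lyz2 in liver rested largely on that array too.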

How the results depend on the processing

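Of 153 alternatives tried on 15 summary counts, 144 stayed within 1.5 times the value reported and 9 moved. Of 1023 on single probes or pairs, 973 kept their side of the threshold, 34 lost the call, 15 gained one and 1 reversed. Direction was compared only where a result was called, so changes of sign among uncalled results are not counted. Tests of class and of its interactions have no direction. Sex calls in fat, 4 as reported, numbered 0 without scanning day 3, 0 without day 8, 2 without the 3 arrays that stood apart and 2 with the number of detected probes as a term. Sex calls in liver, 2 as reported, numbered 4 without day 5. Among females alone, 3 pairs passed in fat (6 as reported) and 3 in liver (5 as reported). With no terms removed, 2 members passed with Lep (1 as reported) and 1 between fat and liver of a mouse (0 as reported). Mrc1 with Lep reversed to -0.59 among males alone. The causes were not tested, but a day left out removes 12 arrays and 1 sex alone leaves 24. With the mouse, whose number in the labels pairs its fat and liver arrays, as a replicate block, 8 probes differed between tissues, 0 by tissue and class and 6 by tissue and sex, as without it (consensus correlations of -0.03 and 0.03). A second probe could be used for Gpnmb alone, in fat. The arrays left out as standing apart, the added terms and Lep as a term were chosen after seeing the data. Genes at background in 1 tissue have only a bound there.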

Other observations

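Some marker lists whose tissue difference is not described above also differed between fat and liver. All 7 tested genes of the dendritic cell and MHC class II list were higher in fat (median difference 1.15 on the log2 scale), as were all 8 of the endothelial list (median 2.24) and 8 of 9 of the stromal list (median 2.26), with 1 stromal gene higher in liver. Of 7 sinusoidal endothelial genes, 6 were higher in liver and 1 in fat (median -0.95). Of all 11718 probes tested, 47.9% were higher in fat and 38.8% in liver.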
